A study of Mus musculus with 20 samples.

Results

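The 10 genes analysed here mark the inhibitory interneurons of the hippocampus and were followed in bulk RNA sequencing of mice infused with human small RNAs. They were the rows of the deposited count table named Pvalb, Sst, Vip, Npy, Cck, Gad1, Gad2, Slc32a1, Lhx6 and Lamp5, that is 10 of 25190 genes, and each name occurred once. All 10 had counts in all 20 libraries, and none was removed by a filter on low values.

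Interneurons release GABA, the main inhibitory transmitter of the brain, and most of them reach only neurons nearby. They fall into classes that are known by the protein or peptide they carry. Parvalbumin cells act on the cell body and axon start of pyramidal neurons, somatostatin cells on their dendrites, Vip cells mostly on other interneurons, Cck basket cells on cell bodies, and neurogliaform cells spread GABA more diffusely.

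The 20 wild-type male C57BL/6JOlaHsd mice formed 4 groups of 5 that differed in what was infused into the dorsal hippocampus through bilateral cannulas. Artificial cerebrospinal fluid was given to Vehicle mice, Control mice received small RNAs pooled from the hippocampus of 9 individuals without psychiatric disorder, and Pool 1 and Pool 2 mice received small RNAs pooled from 10 patients with schizophrenia each, in 2 infusions of 2 µL at 0.24 µg/µL given 48 hours apart. The labels give an age of 4 months and the methods 3 to 4 months; tissue was taken 24 hours after the last behavioural test, and it is called hippocampal in the labels and CA1 in the design text. Control, Pool 1 and Pool 2 each stand for 1 pool of RNA, so mice of such a group are repeats of that pool and not of separate donors.

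The start sites of the peptide genes are known for the cyclic AMP response element, a motif bound by CREB, and are shown here because Sst, Cck and Vip are read side by side later. All 10 genes matched RefSeq promoter windows of 300 bases (250 before to 50 after the start, GRCm38.p6), 14 windows in all. The full motif TGACGTCA was found in Sst alone among the 10, and it occurs in 1.79% of 32851 mouse windows. The shorter TGACG, which the full motif contains, was found on either strand in Sst, Cck, Vip and Gad2 and in 20.8% of all windows. Capitals mark the match, and each stretch of 30 bases runs 5′ to 3′ on the strand of the gene.
Sst (chr16:23890874-23890903, minus strand, match from base -48): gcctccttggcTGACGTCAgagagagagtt
Cck (chr9:121495724-121495753, minus strand, match from base -47): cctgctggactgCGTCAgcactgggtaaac
Vip (chr10:5639127-5639156, plus strand, match from base -79): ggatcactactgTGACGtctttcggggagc
Gad2 (chr2:22622282-22622311, plus strand, match from base -33): ccatttcccttcCGTCActctctcatctcc
Of these genes, Vip carried TGACG, Cck and Gad2 carried its reverse complement, and Sst carried the palindrome of both. A match in these letters is a description of the sequence and was not tied to any value below.

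The libraries held 20588280 to 25543939 counts (median 23343139), so that 1 CPM, a count scaled to the library's effective total, stood for over 20 reads. Pool 2 replicate 1 stood apart from the rest, with a median correlation to the other libraries of 0.9688 against 0.9764 to 0.9872 for the other 19. Its 7 microglia markers summed to 1080 CPM, where the other 4 libraries of that group had 369 to 557, and its 7 astrocyte markers to 6410 CPM, against 3840 to 4960. The 10 thalamus markers summed to 177 to 749 CPM in Pool 2 mice, 156 to 189 in Pool 1, 165 to 341 in Control and 210 to 266 in Vehicle. Libraries also differed in how short genes stood against long ones, by −0.252 to 0.494 on the log2 scale, highest in Control replicate 1. Results of named genes are therefore given with and without Pool 2 replicate 1 wherever that changed a call. The same holds for fits with this length balance and the matching GC balance as covariates. In bulk tissue, fewer cells of a class and less RNA per cell cannot be told apart. Whether the thalamus marker level of a library went with its interneuron gene values was not tested.

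Per kilobase of exon, the peptide genes Sst and Cck were the most abundant of the 10. Over the 20 libraries, Sst had 230 ± 58.8 CPM per kb (SD, n = 20) and Cck 212 ± 59.0, a difference smaller than either SD. Npy followed with 81.7 ± 16.1 CPM per kb, Gad1 with 47.6 ± 4.37 and Gad2 with 31.3 ± 4.79. Pvalb (25.6 ± 6.19 CPM per kb) and Slc32a1 (21.9 ± 3.22) lay close together, and Pvalb differed from both Gad2 and Slc32a1 by less than its own SD. Lamp5 had 15.8 ± 2.75 CPM per kb, and Vip (3.57 ± 0.897) and Lhx6 (3.44 ± 0.518) came last and did not differ beyond their spread. Cck is also made by pyramidal neurons, so its level is not that of basket cells alone.

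**Figure D1:**
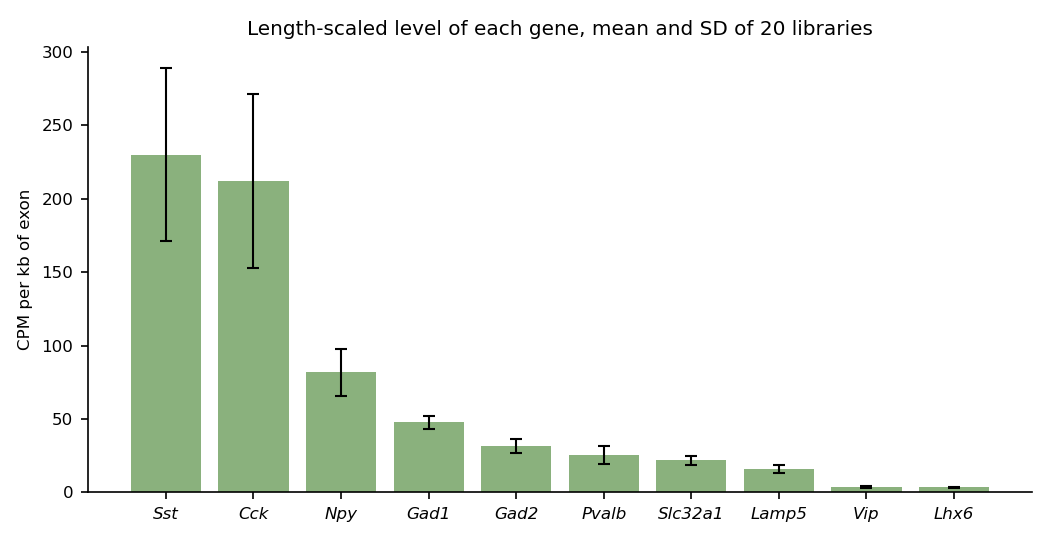
Length-scaled level of the 10 genes in CPM per kb of exon (y axis, linear from 0); bars are means and error bars SDs of the 20 libraries. Sst (230) and Cck (212) stand far above the rest, and Vip (3.57) and Lhx6 (3.44) are lowest.

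Of the 10 genes, Lamp5 was downregulated in Pool 2 compared with Control mice and Lhx6 in Pool 2 compared with Pool 1 mice, and no other member passed the threshold in any of the 4 comparisons. The threshold was that of the study, a log2 fold change of 0.3 or more in size with an unadjusted p under 0.05, here in edgeR's quasi-likelihood test over all genes. In Pool 1 versus Control, 0 of the 10 members passed it, by edgeR or DESeq2, with 0 at an unadjusted p under 0.05 in edgeR, where 3.48% of all genes passed. In Pool 2 versus Control, 1 member passed, where 6.22% of all genes did (1.01% in the lower direction). Between the pools, 1 member passed in Pool 2 versus Pool 1, where 6.82% of all genes did (1.16% lower). In Control versus Vehicle, 0 passed by either tool and 0 had an unadjusted p under 0.05 in edgeR, where 5.10% of all genes passed. Among the 10181 genes with at least 10 CPM, the shares were smaller. There, 2.43% passed in Pool 2 versus Control (0.285% lower) and 3.17% in Pool 2 versus Pool 1 (0.913% lower). A count of 1 in 10 members rests on 1 gene in each comparison and was not tested against either set of shares.

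After Benjamini-Hochberg adjustment over all genes, 0 members passed an adjusted p of 0.05 in any comparison by edgeR or DESeq2, and neither did any other gene in edgeR (0.00% in each comparison). The numbers of members at an unadjusted p under 0.05 were 0, 2, 2 and 0 in edgeR. The 2 in Pool 2 versus Control were Lamp5 and Lhx6, and the same names held for Pool 2 versus Pool 1. By edgeR's quasi-likelihood test, the smallest adjusted p of any gene was 0.421 in Pool 1 versus Control, 0.390 in Pool 2 versus Control, 0.0896 in Pool 2 versus Pool 1 and 0.734 in Control versus Vehicle.

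The sign of the differences leaned one way in Pool 2. All 10 log2 fold changes of Pool 2 versus Control were below zero (−0.45 to −0.06, median −0.25), where 60.0% of the 10181 genes with at least 10 CPM were below zero and their median was −0.03. Against Pool 1, 9 of 10 were below zero (−0.39 to 0.08, median −0.21), against 57.2% of those genes, and the exception was Pvalb. In Pool 1 versus Control the members split 6 below and 4 above (median −0.03), and in Control versus Vehicle 3 below and 7 above (median 0.06). Both Pool 2 comparisons use the same 5 Pool 2 libraries, and both comparisons with Control the same 5 Control libraries. Without Pool 2 replicate 1 the median of the members was −0.20 against Control and −0.19 against Pool 1, and with the length and GC covariates −0.14 and −0.27. The members vary together across libraries, as shown further on, so their signs are not 10 separate observations.

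**Figure D2:**
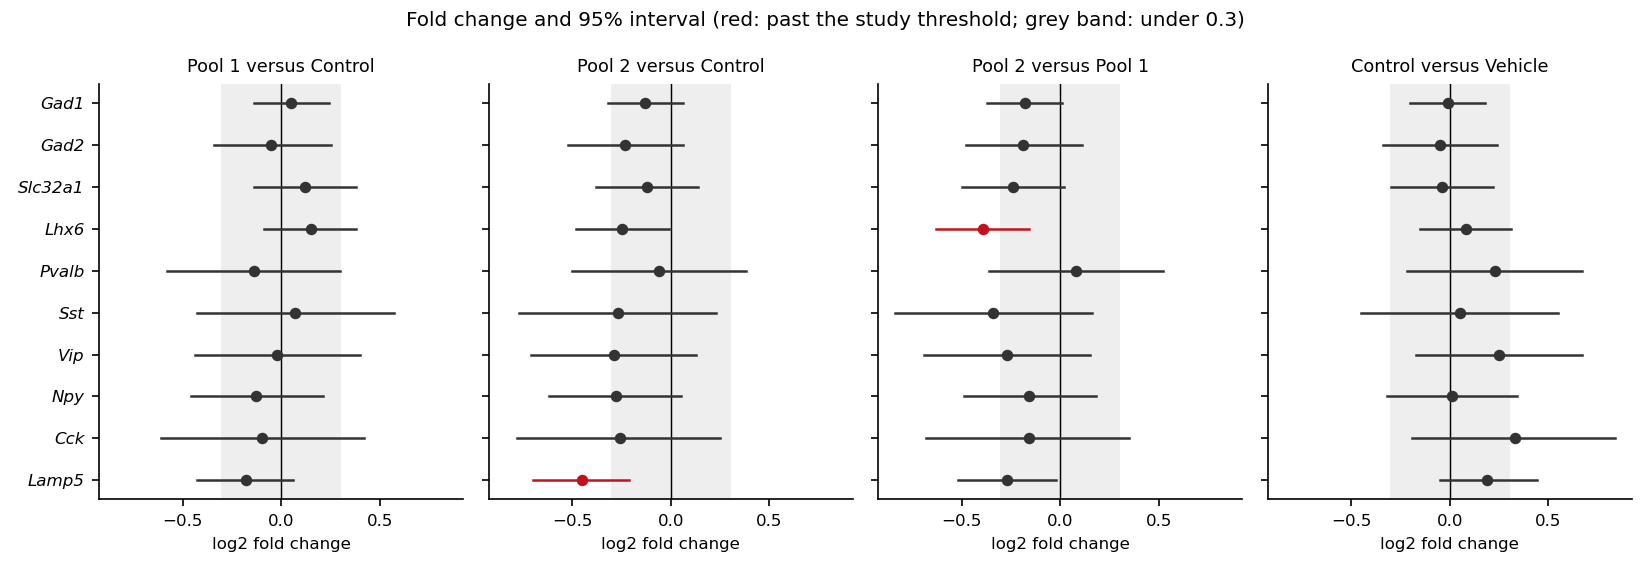
Log2 fold change (x axis) of each of the 10 genes (y axis) in the 4 comparisons, with its 95% interval from edgeR; the grey band spans an absolute log2 fold change under 0.3 and red marks genes past the threshold. Lamp5 (−0.45) is red in Pool 2 versus Control and Lhx6 (−0.39) in Pool 2 versus Pool 1; all points of Pool 2 versus Control lie left of zero.

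Lamp5, a lysosome-associated membrane protein gene that marks neurogliaform cells, had the lowest values in Pool 2 mice. It read 63.7, 61.2, 47.0, 40.6 and 53.5 CPM in Control replicates 1 to 5 and 37.4, 31.6, 43.4, 39.8 and 42.1 CPM in Pool 2 replicates 1 to 5. The groups overlapped, but 3 of 5 Pool 2 mice were below every Control mouse and 5 of 5 below the Control median. Means were 53.2 ± 9.63 CPM in Control and 38.8 ± 4.65 in Pool 2 (SD, n = 5). The log2 fold change was −0.45 (SE 0.12, 95% interval −0.70 to −0.21), a drop of 27.0%, with an adjusted p = 0.445 in edgeR's quasi-likelihood test. An exact two-sided permutation test of these 5 against 5 values gave p = 0.0238, where the smallest possible is 0.00794.

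The Lamp5 difference passed the threshold in Pool 2 versus Control under each of the 19 alternatives run, at −0.55 to −0.38, and was −0.39 with the length and GC covariates. Pool 1 mice read 43.7, 39.5, 50.9, 50.8 and 49.5 CPM, and Vehicle mice 38.9, 42.3, 55.2, 46.9 and 49.2. Pool 1 thus lay between Control and Pool 2, and Vehicle lay with Pool 1. Against Pool 1, Pool 2 was lower by a log2 fold change of −0.27 (95% interval −0.52 to −0.02; adjusted p = 0.528 in edgeR, exact permutation p = 0.0397), under the fold threshold, and it passed without Pool 1 replicate 2, Pool 2 replicate 3 or Pool 2 replicate 5 (−0.33, −0.31 and −0.30), with the covariates (−0.32) and in a fit of both groups alone (−0.31). Against Control, Pool 1 had −0.18 (95% interval −0.43 to 0.06). Control mice themselves had 0.19 against Vehicle (95% interval −0.05 to 0.44), with 2 of 5 Control mice above every Vehicle mouse.

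Lhx6, the transcription factor of interneurons born in the medial ganglionic eminence, to which parvalbumin and somatostatin cells belong, differed between the pools of patients. Pool 1 replicates 1 to 5 read 16.6, 18.3, 18.3, 20 and 20.8 CPM, and Pool 2 replicates 12.6, 13.7, 18, 13.1 and 14.1. In Pool 2, 4 of 5 mice were below every Pool 1 mouse, and replicate 3 alone overlapped. The means of 18.8 ± 1.64 and 14.3 ± 2.15 CPM (SD, n = 5) gave a log2 fold change of −0.39 (SE 0.11, 95% interval −0.63 to −0.16), a drop of 23.9%, with an adjusted p = 0.277 in edgeR. The exact two-sided permutation test gave p = 0.0159. The call held under each of the 19 alternatives run, at −0.49 to −0.35.

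Control mice read 18.8, 18.9, 18.4, 13.1 and 15.6 CPM of Lhx6 and Vehicle mice 15.2, 15.8, 18.7, 14.8 and 15.8. The Control values fell apart, with replicates 1 to 3 as high as Pool 1 and replicate 4 as low as Pool 2. Pool 2 versus Control had −0.25 (95% interval −0.48 to −0.01; adjusted p = 0.627 in edgeR, exact permutation p = 0.111), under the fold threshold, and Pool 1 versus Control 0.15 (−0.09 to 0.38). Without Control replicate 4 or without Pool 2 replicate 3, the difference of Pool 2 to Control was −0.34 and passed.

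**Figure D3:**
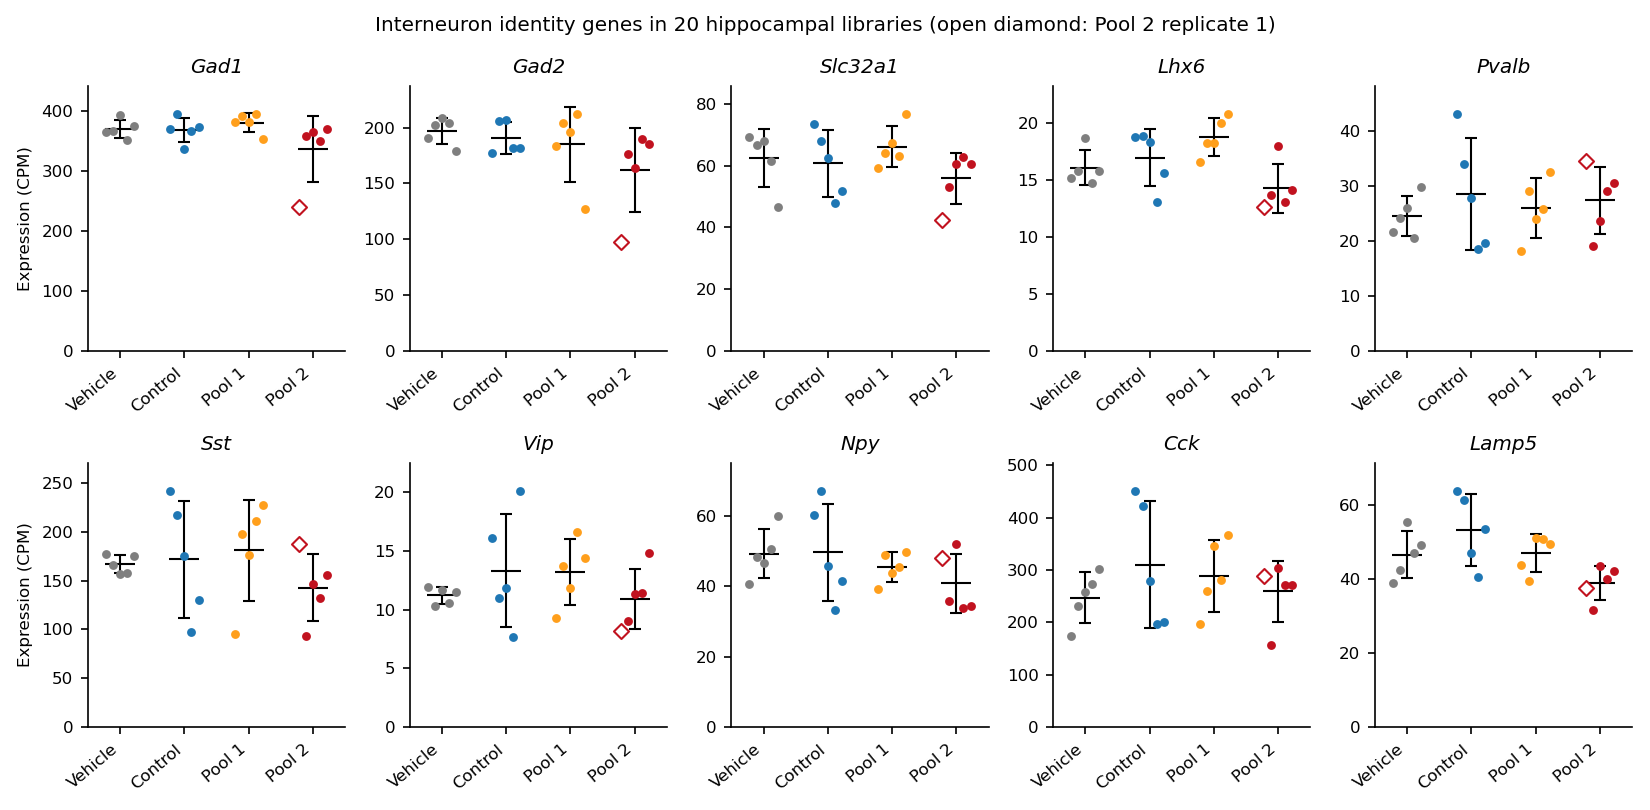
Expression in CPM (y axis, linear from 0) of the 10 genes in each of the 20 libraries by group (x axis); points are mice, black bars the group mean with SD (n = 5), and the open diamond is Pool 2 replicate 1. In Pool 2, Lamp5 lies between 31.6 and 43.4 and Lhx6 between 12.6 and 18, whereas the diamond sets the low end of Gad1 (239) and Gad2 (97.3).

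Gad1 and Gad2 encode the enzymes that make GABA from glutamate, and Slc32a1 the transporter that loads it into vesicles. None passed the threshold in any comparison. Gad1 was the steadiest of the 10 genes, at 352 to 393 CPM in Vehicle, 336 to 394 in Control and 353 to 394 in Pool 1. In Pool 2 it read 239, 358, 364, 350 and 369 CPM, so 4 mice were within the range of Control and replicate 1 was below every other library. The log2 fold change of Pool 2 versus Control was −0.13 (95% interval −0.32 to 0.06, exact permutation p = 0.254), and without replicate 1 it was −0.03. Against Pool 1, Pool 2 had −0.18 (95% interval −0.37 to 0.01, exact permutation p = 0.0317), or −0.08 without replicate 1. All 5 Pool 2 mice were below the Pool 1 median of Gad1, and 2 of 5 were below every Pool 1 mouse.

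Gad2 behaved likewise at lower counts. Control mice read 177, 206, 207, 182 and 182 CPM, Pool 1 mice 184, 204, 196, 212 and 127, and Pool 2 mice 97.3, 176, 164, 190 and 185. The low points were Pool 2 replicate 1 and Pool 1 replicate 5, and the groups overlapped. Pool 2 versus Control had −0.23 (95% interval −0.52 to 0.06), or −0.09 without replicate 1, and Pool 1 versus Control −0.05 (−0.34 to 0.25). The ratio of Gad1 to Gad2 counts was 1.88, 2.02, 1.94 and 2.03 in the median Vehicle, Control, Pool 1 and Pool 2 mouse, and reached 2.78 in Pool 1 replicate 5 and 2.45 in Pool 2 replicate 1. Gad2 was also the member that followed the GC balance of the libraries most, with r = 0.67 over 20 libraries after group means were removed.

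Slc32a1 read 73.5, 68.2, 62.6, 48 and 51.8 CPM in Control, 59.3, 64.2, 67.5, 63.1 and 76.7 in Pool 1 and 42.4, 53.2, 60.5, 62.7 and 60.5 in Pool 2. All 5 Pool 2 mice were below the Pool 1 median, and 2 of 5 were below every Pool 1 mouse. The log2 fold change of Pool 2 versus Pool 1 was −0.24 (95% interval −0.50 to 0.02; adjusted p = 0.623 in edgeR, exact permutation p = 0.0476), and that of Pool 2 versus Control −0.12 (−0.38 to 0.14). In the whole list of 11 genes for GABA synthesis, packaging and reuptake, none passed in either pool against Control or between the pools. In Pool 2 versus Control, 2 had an unadjusted p under 0.05 in edgeR. Without Pool 2 replicate 1, 2 of the 11 were called higher in Pool 2 versus Control and 1 in Pool 2 versus Pool 1. None was then called lower, and the medians were 0.10 and 0.03. With all 20 libraries, 5.20% and 5.66% of all genes were called higher in these comparisons. Slc38a3, a glutamine carrier, was the 1 gene of that list called in Control versus Vehicle (−0.31; exact permutation p = 0.0556), and it was not called without Vehicle replicate 4 (−0.16) or Control replicate 4 (−0.28), with filterByExpr (−0.29) or in a fit of both groups alone (−0.30).

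Sst, the peptide of dendrite-targeting cells, varied widely among mice of a group. Vehicle mice read 177, 166, 157, 158 and 175 CPM, Control mice 242, 217, 175, 97.8 and 130, Pool 1 mice 94.9, 198, 176, 211 and 227, and Pool 2 mice 188, 93.7, 147, 132 and 156. The coefficient of variation was 5.57% in Vehicle, 34.7% in Control, 28.6% in Pool 1 and 24.0% in Pool 2, and the lowest mouse was at 157, 97.8, 94.9 and 93.7 CPM. Pool 2 versus Control had a log2 fold change of −0.27 (95% interval −0.77 to 0.23) and Pool 2 versus Pool 1 −0.34 (−0.84 to 0.16; exact permutation p = 0.302). With the length and GC covariates the latter passed the threshold (−0.44), as it did without Pool 1 replicate 1 (−0.50).

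Pvalb, a calcium-binding protein of fast-spiking basket cells, ranged from 20.6 to 29.8 CPM in Vehicle, 18.6 to 43.1 in Control, 18.2 to 32.6 in Pool 1 and 19.1 to 34.6 in Pool 2. The groups overlapped almost wholly. Its log2 fold changes were −0.14 in Pool 1 and −0.06 in Pool 2 versus Control (95% intervals −0.58 to 0.30 and −0.50 to 0.38), and both changed sign without Control replicate 1 and with the length and GC covariates. Both intervals reach 0.3 in either direction, so a difference of the size of the threshold was not excluded with these mice.

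Npy, a peptide of neurogliaform, ivy and many somatostatin cells, read 60.1, 67.1, 45.8, 33.4 and 41.4 CPM in Control and 47.9, 35.9, 51.9, 33.8 and 34.4 in Pool 2. Its log2 fold change of −0.28 (95% interval −0.62 to 0.05; exact permutation p = 0.270) did not pass; without Control replicate 4 (−0.41) or Pool 2 replicate 3 (−0.38) it did. In Pool 1 it lay between 39.2 and 49.6 CPM, inside the range of Control. Vip, the peptide of interneurons that inhibit other interneurons, ranged from 7.67 to 20.1 CPM in Control and 8.14 to 14.8 in Pool 2, with a log2 fold change of −0.29 (−0.71 to 0.13) that passed without Control replicate 4 alone (−0.44). Without that mouse Vip was also called higher in Control than in Vehicle (0.41), where it had 0.25. In Vehicle mice Vip stayed between 10.3 and 11.9 CPM, and its coefficient of variation was 6.14% there against 36.2% in Control.

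Cck had the widest spread of the 10 genes, 39.0% in Control. Control mice read 451, 423, 279, 196 and 201 CPM, Pool 1 mice 196, 259, 345, 281 and 367, and Pool 2 mice 289, 157, 303, 271 and 272. Control replicates 1 and 2 stood above all other libraries, and the remaining Control mice lay within the range of Vehicle (173 to 302 CPM). Log2 fold changes were −0.10 in Pool 1 and −0.26 in Pool 2 versus Control and 0.33 in Control versus Vehicle (95% interval −0.19 to 0.84; exact permutation p = 0.373). With the length and GC covariates these became 0.23, −0.06 and −0.05, none past the threshold. Control versus Vehicle, in which 3 of 10 members were below zero, contained no call among the 10.

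Genes of transcription factors that keep forebrain interneurons in their identity were called lower in Pool 2 mice as well. The list held Dlx1, Dlx2, Dlx5, Dlx6, Dlx6os1 (a long noncoding RNA antisense to Dlx6), Sp9 and Npas1. In Pool 2 versus Control, 4 of 7 were downregulated and none was upregulated, where 1.01% of all genes tested were called lower. This list and the other gene lists were chosen with earlier results of these data known. Their counts beside the share of all genes are therefore descriptions and not tests. The 7 genes include Dlx6 and the overlapping Dlx6os1 and are not 7 separate observations. All 7 were below zero, as were 49.3% of all genes, and the median log2 fold change was −0.43, against 0.00 over all genes. The 4 were Dlx1 (−0.45, exact permutation p = 0.0556), Dlx5 (−0.55, p = 0.0873), Dlx6 (−0.51, p = 0.0714) and Dlx6os1 (−0.43, p = 0.0238), with adjusted p of 0.479 to 0.572 in edgeR. Compared with Pool 1, 4 of 7 were downregulated in Pool 2 (Dlx1, Dlx2, Dlx6os1 and Npas1), where 1.16% of all genes were, and the median was −0.34, against 0.02 over all genes. In Pool 1 versus Control and in Control versus Vehicle, 0 of 7 passed and 0 had an unadjusted p under 0.05 in edgeR.

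Dlx1, a homeobox gene kept on in adult interneurons, showed the clearest separation. Pool 2 mice read 10.5, 11.5, 12.1, 10.6 and 13.7 CPM and Pool 1 mice 15.3, 14.9, 15.1, 18.6 and 15.1. These groups did not overlap, and the exact two-sided permutation p was 0.00794, the smallest that 5 against 5 can give. The log2 fold change was −0.44 (95% interval −0.73 to −0.14; adjusted p = 0.354 in edgeR). Control mice read 18.4, 17.9, 19.1, 11.4 and 13.3 CPM, and replicates 4 and 5 lay within the range of Pool 2.

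Pool 2 replicate 1 was the lowest library of its group for 5 of these 7 genes. Its 7 genes summed to 42 CPM, against 51.1 to 60.5 in the other Pool 2 mice, 54.3 to 80.6 in Control, 63.4 to 73.1 in Pool 1 and 63.9 to 77.9 in Vehicle. Without it, 3 of 7 remained downregulated against Control (Dlx6, at −0.40, was lost) and the median was −0.31, and against Pool 1 it was 2 of 7. With the length and GC covariates, Dlx1 (−0.33) and Dlx6os1 (−0.39) passed in Pool 2 versus Control and Dlx5 and Dlx6 did not. The count against Control was 3 to 6 when 1 library was left out, 6 without Control replicate 4. Dlx5 and Dlx6 lay at only 1.78 to 5.90 CPM, and neither stayed past the threshold without some single libraries, among them Control replicate 1 for Dlx5 (−0.41) and Control replicate 2 for Dlx6 (−0.39). Against Pool 1, Dlx2 was lost without Pool 1 replicate 2 or 5 or Pool 2 replicate 1 or 2 (−0.40 to −0.34), Npas1 without Pool 2 replicate 2 (−0.26) and Dlx6os1 without Pool 1 replicate 3 (−0.33) or Pool 2 replicate 1 (−0.26). Dlx6os1 overlaps Dlx6 on the opposite strand; the kit kept the strand, but whether the counted column used it is not given in the sources used here.

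**Figure D4:**
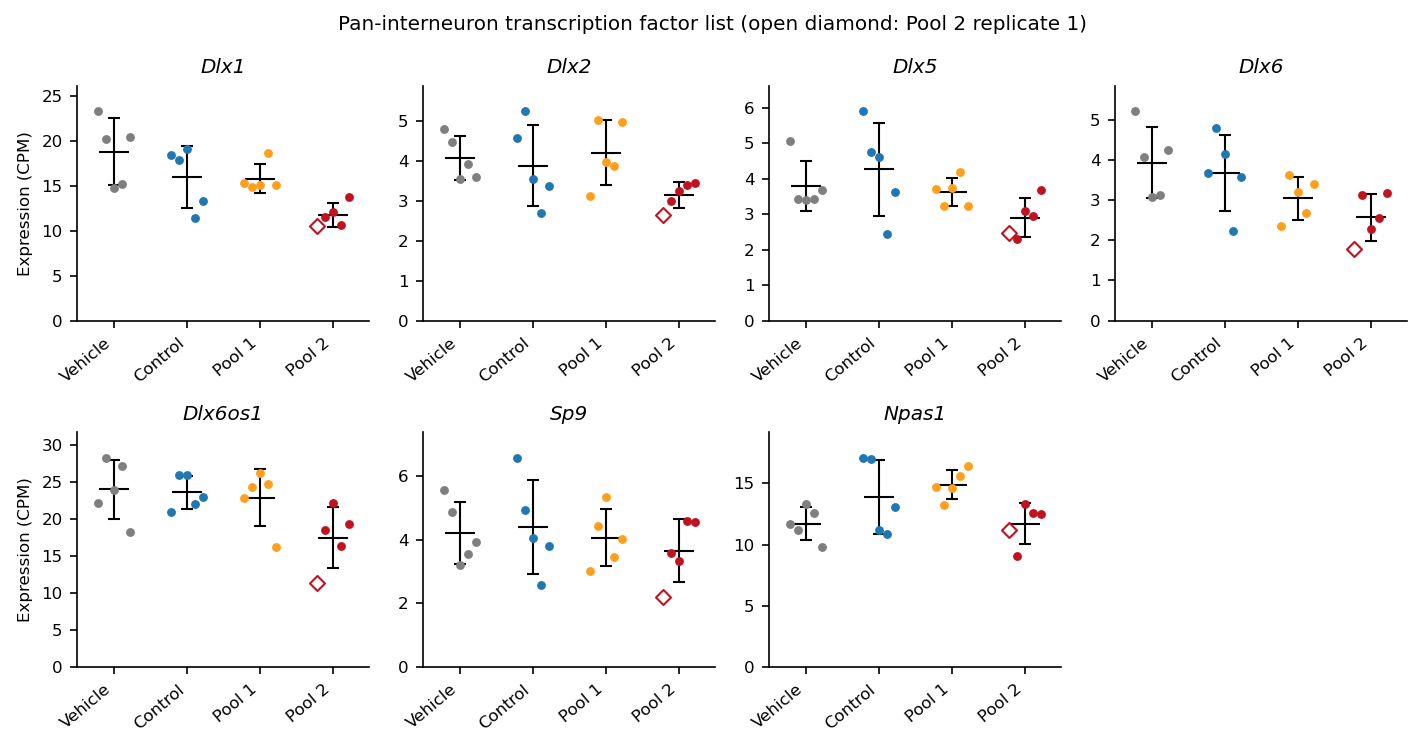
Expression in CPM (y axis, linear from 0) of the 7 genes of the pan-interneuron transcription factor list by group (x axis); points are mice, black bars the group mean with SD (n = 5), and the open diamond is Pool 2 replicate 1. The Pool 2 values of Dlx1 (10.5 to 13.7) lie below all Pool 1 values (14.9 to 18.6).

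The lists of separate interneuron classes did not all lean the same way against Control. In Pool 2 versus Control, 0 of 8 genes each of the medial and caudal ganglionic eminence lineages, 0 of 14 parvalbumin cell genes and 0 of 9 Cck basket cell genes passed, with 1, 0, 0 and 0 at an unadjusted p under 0.05 in edgeR. Lhx6 itself was the 1. Their median log2 fold changes were 0.05, 0.07, −0.01 and −0.26, with 3 of 8, 3 of 8, 7 of 14 and 8 of 9 genes below zero. The Cck basket cell genes thus leaned lower, with a median of −0.15 without Pool 2 replicate 1. Of the 12 somatostatin cell genes and the 10 Vip and calretinin cell genes, 1 each was called higher (Chrna2 and Crispld2). The list medians were −0.02 and −0.13. Of all genes, 5.20% were called higher and 1.01% lower. Chrna2 was not called without Pool 2 replicate 1 or 5, without Control replicate 2 or 4, or with the length and GC covariates. Without Pool 2 replicate 1, 0 somatostatin cell genes were called, and 1 Vip and calretinin cell gene was called higher and 1 lower. The 12 neurogliaform and ivy cell genes had 1 lower, Lamp5, and 1 higher, Lsp1 (0.91; 0.55 without Pool 2 replicate 1), a median of −0.03 and 3 at an unadjusted p under 0.05. Lsp1, an actin-binding protein gene known best from leukocytes, read 8.18 CPM in Pool 2 replicate 1, the library rich in microglia markers, and 2.73 to 4.63 in the other Pool 2 mice, all above the Control range of 1.91 to 2.65.

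Of 9 Cck basket cell genes, 3 were downregulated in Pool 2 versus Pool 1, where 1.16% of all genes were called lower, with a median of −0.37 (−0.26 without Pool 2 replicate 1). They were Cnr1, the presynaptic cannabinoid receptor (245 ± 29.6 CPM in Pool 1 and 179 ± 34.1 in Pool 2, SD, n = 5; −0.45), Slc17a8, the vesicular glutamate transporter of these cells (−0.61), and Htr3a, the ionotropic serotonin receptor (−0.54), which is also on the caudal ganglionic eminence and Vip lists. All 3 also passed without Pool 2 replicate 1, at −0.34, −0.45 and −0.40. Cnr1 in Pool 2 read 120, 203, 193, 182 and 199 CPM against 242, 265, 267, 256 and 195 in Pool 1, and 3 of 5 Pool 2 mice were below every Pool 1 mouse. Against Control (184 to 246 CPM) Cnr1 did not pass.

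Calb2, which encodes the calcium-binding protein calretinin, was called higher in Pool 2 than in Pool 1 (0.89; exact permutation p = 0.0397), with 6.23 to 16.4 CPM in Pool 1 and 14.6 to 29.2 in Pool 2. Leaving out any of Pool 1 replicates 2, 3 and 5 or Pool 2 replicates 2, 3 and 4 ended the call (0.73 to 0.94). Crispld2, which encodes a secreted protein, had 0.90 against Control and 0.87 against Pool 1, and without Pool 2 replicate 4, which read 5.47 CPM, 0.52 and 0.49 and no call. Of 10 thalamus markers, 6 were called higher in Pool 2 against Control and 8 against Pool 1 (median 0.80 and 1.44). Of all genes, 5.20% and 5.66% were called higher there. Without Pool 2 replicate 1, 8 and 10 of the thalamus markers were called higher (median 0.96 and 1.65). Calb2 is also known from thalamic neurons, and their part in the Calb2 value was not tested. Chat, Chodl and Chrna2 passed the threshold at very low counts, Chat in Pool 1 versus Control and Pool 2 versus Pool 1 and the others in 1 comparison each. Chat had 0 counts in all 5 Pool 1 libraries, 0 to 6 in Control and 0 to 18 in Pool 2, Chodl 0 to 3 in Pool 1 and 4 to 8 in Pool 2, and Chrna2 0 to 6 in Control and 2 to 19 in Pool 2, so no fold is given.

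In Pool 1 versus Control, the genes called were Syt2, Kit and Npy5r, with Chat above. The study reported Syt2 as upregulated in both pools against Control, using DESeq2. By immunofluorescence it also reported more SYT2-positive clusters in CA1 of both groups of mice and in the hippocampus of the patients. Those counts are of protein, whereas the values here are of RNA. Syt2, a synaptotagmin of parvalbumin cell terminals that the study followed, read 26.3, 20.1, 20.1, 20.4 and 23.6 CPM in Control and 20, 39.2, 26.2, 34.3 and 36.6 in Pool 1. Pool 1 replicate 1 was below all Control mice while 3 of 5 were above them, and the log2 fold change was 0.50 (95% interval 0.04 to 0.96; adjusted p = 0.917 in edgeR, exact permutation p = 0.0873). It did not pass with the length and GC covariates (0.38), nor without Control replicate 2, 3 or 4 or Pool 1 replicate 2, 4 or 5 (0.41 to 0.47). Pool 2 mice read 25.1, 26.8, 21, 29 and 48.5 CPM, 3 of 5 above every Control mouse, and the log2 fold change against Control of 0.45 (95% interval −0.02 to 0.91; adjusted p = 0.674 in edgeR, exact permutation p = 0.0794) was not a call. It became one without Control replicate 1 (0.52), Pool 2 replicate 1 (0.50) or Pool 2 replicate 3 (0.55), with DESeq2 (0.44), in a fit of both groups alone (0.42) and without robust estimation (0.45), and it was 0.21 without Pool 2 replicate 5. Kit, a receptor tyrosine kinase of several interneuron classes, had 0.34 (exact permutation p = 0.0476), but 0.20 with the covariates and 0.29 without Control replicate 4, neither a call.

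The receptors of the member peptides gave few calls. In Pool 2 versus Pool 1, 2 of 13 were lower and 1 higher, with a median of 0.07. Of all genes, 1.16% were called lower and 5.66% higher there. The lower ones were the somatostatin receptors Sstr3 (38.1 ± 5.22 CPM in Pool 1 and 29.6 ± 4.43 in Pool 2; −0.36) and Sstr4 (28.6 ± 7.29 and 19.9 ± 4.14; −0.52), the latter not past the threshold with the covariates. Leaving out Pool 2 replicate 5 took Sstr3 to −0.30, and leaving out Pool 1 replicate 2 or 3 or Pool 2 replicate 2 or 4 took Sstr4 to −0.50 to −0.43, in each case without a call. Vipr2, a receptor for Vip, was higher by 2.15, but its Pool 2 mice read 0.731, 6.23, 2.42, 10.5 and 1.25 CPM and the lowest was below every Pool 1 mouse. It was also called against Control (1.36; exact permutation p = 0.238), a value of 0.70 and no call without Pool 2 replicate 4, and no call without Pool 2 replicate 2 or any of Control replicates 1, 2, 3 and 5, nor in a fit of both groups alone. Npy5r, a receptor for Npy, was lower in Pool 1 than in Control (−0.33) and higher in Control than in Vehicle (0.31), comparisons that share the Control libraries (7.56 to 11.3 CPM). Neither call held without Control replicate 4 (−0.24 and 0.23) or Control replicate 5 (−0.27 and 0.25), nor did the first without Pool 1 replicate 3 or 5, or the second without Vehicle replicate 1 or 4.

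Within groups, Pvalb varied with Sst and Cck across mice, and Gad1 with Gad2, whereas Vip had an r of only 0.14 to 0.45 to Pvalb, Sst, Npy and Cck. After group means were removed, Pvalb and Sst had r = 0.88 (permutation p = 4e-05, adjusted over 45 pairs 0.0018) and rho = 0.82 over 20 libraries, and r = 0.84 without the 2 libraries farthest from the median. Pvalb and Cck had r = 0.83 and rho = 0.73 (permutation p = 0.00029 and 0.0031), and 0.77 without the farthest 2. Cck and Lamp5 had r = 0.79 and rho = 0.77, and Npy and Cck r = 0.78 and rho = 0.74, falling to 0.69 and 0.70 without the farthest 2. Lhx6 and Lamp5, the called genes, had r = 0.65 and rho = 0.69 (permutation p = 0.00761 and 0.00373). In all, 7 of 45 pairs had an adjusted permutation p under 0.05 for r and 5 of them for rho as well. Leaving out Pool 2 replicate 1 left Pvalb and Sst at 0.87.

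Gad1 and Gad2 had r = 0.80 and rho = 0.58 (permutation p = 0.0222 and 0.0291; adjusted 0.0908 and 0.109), and 0.55 without Pool 2 replicate 1. Both enzymes had r of −0.29 to −0.09 to Pvalb, Sst, Npy and Cck, but 0.33 (Gad1) and 0.19 (Gad2) to Vip. The smallest adjusted permutation p of these values was 0.318. Without Pool 2 replicate 1, Gad1 had −0.04 to 0.10 to the first named genes and 0.18 to Vip. Gad2 then had −0.18 to −0.11 and −0.01. The short-against-long balance of the libraries had r = 0.81 with Cck, 0.74 with Pvalb and Npy, 0.71 with Sst, 0.68 with Lamp5, 0.52 with Lhx6, 0.34 with Vip, 0.25 with Slc32a1, −0.18 with Gad1 and −0.49 with Gad2. The order did not follow exon length alone, which is 566 bases in Npy, 721 in Sst, 1041 in Pvalb and 1305 in Cck, and, further, 2797 in Slc32a1, 2933 in Lamp5, 3402 in Vip, 4805 in Lhx6, 5876 in Gad2 and 7639 in Gad1. Once both balances were removed, Pvalb and Sst kept r = 0.75 and Pvalb and Cck 0.57, whereas Npy and Cck had 0.41 and Gad1 and Gad2 0.86. To Pvalb, Sst, Npy and Cck, Gad1 then had −0.19 to 0.06 and Gad2 −0.01 to 0.36. To Vip they had 0.41 and 0.42. Gad2 also had 0.82 to Slc32a1 and 0.58 to Lhx6, where it had 0.33 and 0.13 before.

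**Figure D5:**
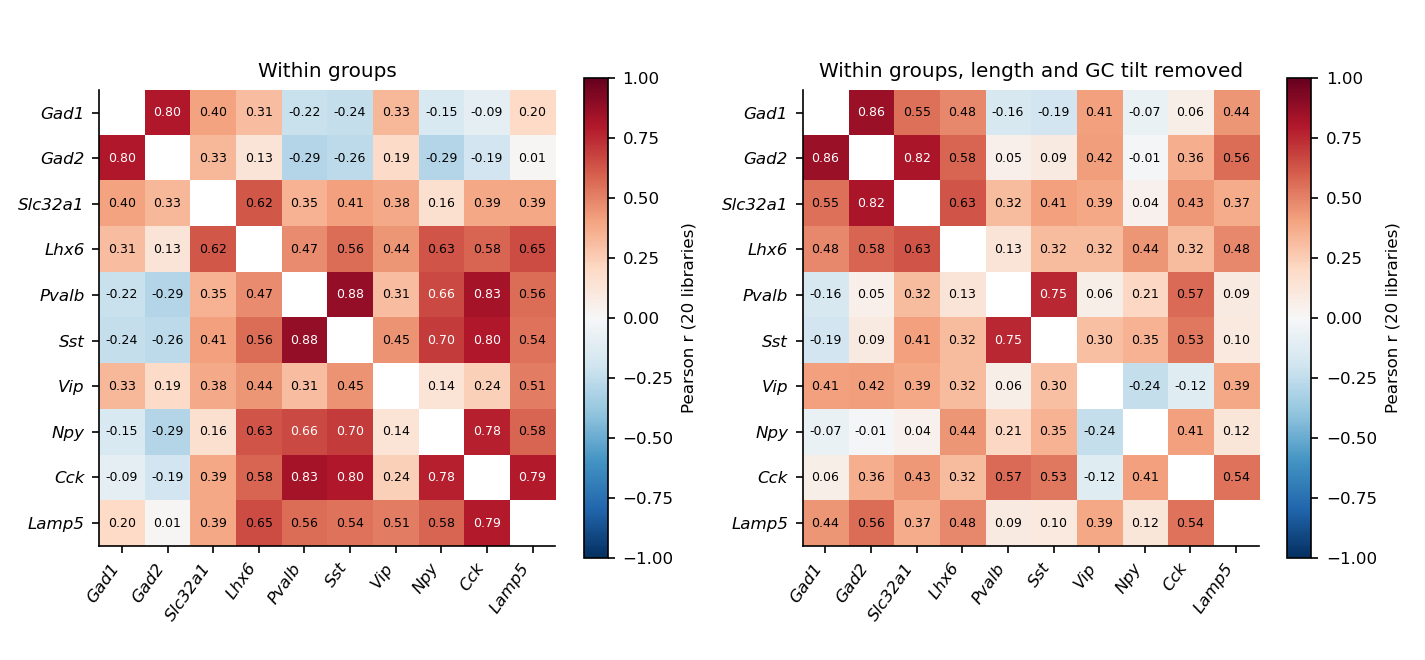
Pearson r (colour and printed value, −1 to 1) between the 10 genes over 20 libraries after group means were removed, before (left) and after (right) each library's length and GC balance was removed. Pvalb and Sst are at 0.88 and 0.75, Gad1 and Gad2 at 0.80 and 0.86, and the pairs among Pvalb, Sst, Npy and Cck are paler on the right.

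For each member, the most similar gene was sought among 11767 genes with a mean of at least 5 CPM, by r over the same 20 libraries. Cck was most like Map1lc3a (r = 0.97), Sst like Zfp703 (0.92), Gad2 like Nkrf (0.91), Pvalb like Fth1 (0.91), Npy like Klk8 (0.89), Lamp5 like Atp5o (0.88), Slc32a1 like Ptprn2 (0.85), Gad1 like Mtmr7 (0.85), Vip like Mal2 (0.80) and Lhx6 like Gng4 (0.79). Without Pool 2 replicate 1 the value of Gad1 and Mtmr7 was 0.64, and those of the other pairs were 0.77 to 0.97. Each is the highest of 11767 values, and the length and GC balances of the libraries were not removed from them. Whether a pair shares more than such a balance was not tested.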

How the data were processed

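Polyadenylated RNA of 20 mouse hippocampi was sequenced in stranded libraries (50-base single-end reads). The authors aligned the reads to GRCm38 with STAR (GENCODE release M20), checked them with FastQC 0.11.5 and deposited raw counts per gene, without normalization; genes whose counts summed to under 10 are already left out. Libraries were grouped by the labels, no 2 replicates were repeats of 1 library (chi-square per degree of freedom 6.01 to 46.4 over 40 pairs), and nothing says more of the replicates than that each is a separate mouse label, so p-values measure the spread between these samples.

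Library sizes were scaled by TMM, and edgeR 4.0.16 under R 4.3.3 fitted all 4 groups together (robust glmQLFit, glmQLFTest) with no covariate and Benjamini-Hochberg adjustment over 25190 genes. DESeq2 1.42.0, other scalings and filters, the replicate number as a block, leaving out each library, and 18 libraries (without Vehicle replicate 4 and Pool 2 replicate 1) were alternatives; covariates for each library's balance of short to long and of low to high GC genes were added after seeing the data. Values per library are TMM-scaled CPM; lengths came from GENCODE release M21. Correlations used log2 CPM (prior count 2) with group means removed and 1e+05 permutations within groups. Intervals are 95% intervals of the fold change. Counts were also simulated for Pool 1 versus Control over 25190 genes, 200 of them altered by 1 log2 unit. Of the altered genes, edgeR put 99% past the threshold of the study and 94.5% past an adjusted p of 0.05. It called 3.75% of the unaltered genes at the threshold of the study and 5 of them at the adjusted p. The altered genes changed by more than Lamp5 and Lhx6 did, so recovery of changes of that smaller size was not tested.

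The members and lists were chosen with earlier results of these data known. The text names all 10 members, genes of the interneuron and peptide receptor lists called in a comparison, Syt2, and for each member the gene with the highest r. Sp9, which passed no test, is named as a member of its list, 1 further gene is not reported here, and list names of other cell types only by their sums and counts.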

Additional observations from a re-analysis of the deposited data

Results flagged for a closer look

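Among the 40 sets of 5 values (10 genes in 4 groups), 5 held a mouse set far from the other 4 by Dixon's criterion, where chance gives about 1 in 20 sets, or 2. Pool 2 replicate 1 was low in Gad1 (239 CPM) and in Gad2 (97.3 CPM), the genes of the GABA-making enzymes. The same library read 1080 CPM of microglia markers and the lowest values of Slc32a1 and Lhx6 in its group. Lhx6 was high in Vehicle replicate 3 (18.7 CPM) and in Pool 2 replicate 3 (18 CPM), the one Pool 2 mouse that reached the range of Pool 1. Cck was low in Pool 2 replicate 2 (157 CPM), which also had the lowest Sst, Pvalb and Lamp5 of its group.

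Lhx6 was the only one of the 10 genes whose effect against Control differed between the pools past the threshold. The difference of Pool 2 to Pool 1 was −0.39 on the log2 scale (adjusted p = 0.277 in edgeR's quasi-likelihood test, exact permutation p = 0.0159), and 4 of 5 Pool 2 mice were below all Pool 1 mice.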

How the results depend on the processing

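Lamp5 in Pool 2 versus Control and Lhx6 in Pool 2 versus Pool 1 passed the threshold under each of the 19 alternatives. The count of members called in Pool 2 versus Control was 1 to 4 when 1 library was left out (4 without Control replicate 4, which added Vip, Lhx6 and Npy), in Pool 2 versus Pool 1 it was 1 to 2, and in Control versus Vehicle 0 to 1. In Pool 2 versus Pool 1 it was 2 in a fit of both groups alone and 3 with the length and GC covariates. The count of transcription factors called lower in Pool 2 versus Control was 3 to 6 with 1 library left out and 2 with these covariates. Totals were 20588280 to 25543939 counts per library, and the lowest of the members, Vip, had 7.67 CPM or more in each, so the spread between mice set the limit.

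The signs that turned were all of differences not called. With 1 library left out, the log2 fold changes ranged as follows. In Control versus Vehicle, Gad1 ranged from −0.04 to 0.02, Slc32a1 from −0.13 to 0.04, Sst from −0.11 to 0.21 and Npy from −0.13 to 0.13. In Pool 1 versus Control, Gad2 ranged from −0.10 to 0.06, Pvalb from −0.27 to 0.05, Sst from −0.08 to 0.24, Vip from −0.16 to 0.18, Npy from −0.24 to 0.01 and Cck from −0.23 to 0.08. Pvalb ranged from −0.20 to 0.13 in Pool 2 versus Control and from −0.03 to 0.18 in Pool 2 versus Pool 1. With the length and GC covariates, the values that turned were in Pool 1 versus Control 0.04 for Gad2, 0.11 for Pvalb, 0.13 for Vip, 0.10 for Npy and 0.23 for Cck, and in Control versus Vehicle −0.00 for Lhx6, −0.07 for Pvalb, −0.29 for Sst, −0.22 for Npy and −0.05 for Cck. Pvalb became 0.09 in Pool 2 versus Control and −0.02 in Pool 2 versus Pool 1, the latter also over 18 libraries (−0.02). Gad1 in Control versus Vehicle was 0.01 with filterByExpr and 0.00 in a fit of the groups alone, where Vip in Pool 1 versus Control was 0.00. The cause was not tested.

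The replicate numbers do not pair the mice, as correlations of same-numbered deviations ran from −0.381 to 0.301. With the replicate block, the counts of members called were 0, 1, 1 and 0 as without it, and 2 uncalled values turned, Vip in Pool 1 versus Control to 0.01 and Npy in Control versus Vehicle to −0.01. Syt2 lost its call with the block (0.50).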
